A study of Mus musculus with 25 samples.

Results

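Gonadal white adipose tissue of mice kept for 8 weeks on a high-fat diet (HFD) was compared with that of mice kept as long on a low-fat diet (LFD). The 8 arrays were chosen by the diet and time in their labels, 4 for each diet, out of 25 arrays in the series. All mice were male, heterozygous ApoE3L.CETP transgenics. They carry the APOE*3-Leiden variant and human cholesteryl ester transfer protein, a background used to give mice a more human-like lipoprotein profile. There was no group without the transgenes, and the labels do not name the promoters that drive them. Diets began at 12 weeks of age, and the tissue compared here came from mice aged 20 weeks. The HFD held 60% fat, 20% carbohydrate, 20% protein and 0.25% cholesterol, and the LFD held 10% fat, 70% carbohydrate and 20% protein, so the effects of fat, carbohydrate and cholesterol cannot be told apart. Expression was measured on Affymetrix Mouse Gene 2.0 ST arrays, and every level below is a deposited log2 value, on which a difference of 1 unit stands for a doubling. The labels call the arrays of a group biological replicates.

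White adipocytes store triglyceride, and they can also build fatty acids from glucose by way of citrate and acetyl-CoA, a route that insulin and dietary carbohydrate raise and dietary fat lowers. Adipose tissue has its own circadian clock, in which BMAL1 (encoded by Arntl) and CLOCK drive their own repressors and a set of output transcription factors. In obesity, macrophages gather around dying adipocytes, take up lipid and express genes of lysosomal lipid handling.

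Liver transcripts were not evenly present in the 8 arrays. Alb, which encodes serum albumin, read 10.46, 13.62, 13.52 and 13.34 in HFD replicates 1 to 4, and 13.38, 13.32, 8.41 and 9.06 in LFD replicates 1 to 4. HFD replicates 2, 3 and 4 and LFD replicates 1 and 2 therefore carried Alb near the upper end of the array's range, and the other 3 did not. The mean of 25 hepatocyte genes gave the same division, at 9.84 to 10.52 in the former and 5.43 to 6.81 in the latter. Xist, a transcript of the inactive X chromosome in females, was 5.31 to 6.24 in the arrays with high hepatocyte transcripts and 3.64 to 3.78 in the others, although all mice are labelled male. The Y-linked Kdm5d, Uty and Eif2s3y were measured in all 25 arrays at levels of at least 6.5. Adipoq, the adiponectin gene and a defining adipocyte marker, lay between 11.39 and 11.78 in all 8 arrays. None of the hepatocyte genes was called between the diets, but 24 of the 25 were higher under HFD and 1 was lower, with a median difference of 2.0. The median was 0.49 within the arrays with high hepatocyte transcripts and 1.47 within the others. Liver transcripts were therefore not balanced between the diets. The moderated SE was large, at 1.39 for Alb. Because the share of arrays with liver transcripts was 3 of 4 under HFD and 2 of 4 under LFD, the differences below are also given within each kind of array where they bear on the result.

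**Figure D1:**
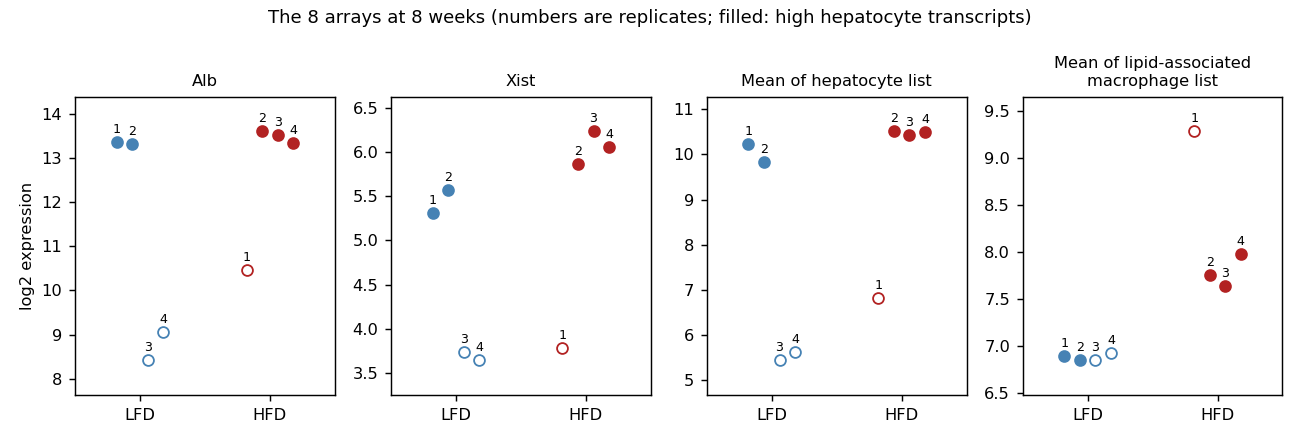
Log2 levels of Alb, Xist and the means of the hepatocyte and lipid-associated macrophage lists in the 4 LFD and 4 HFD arrays at 8 weeks. Each point is 1 array, numbered by replicate and filled where the hepatocyte mean exceeded 8; HFD replicate 1 combines low hepatocyte transcripts with the highest macrophage mean, 9.29.

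Of 22180 genes tested with limma over all 25 arrays, 533 differed between the diets at a Benjamini-Hochberg adjusted p under 0.05 (called; 2.4% of those tested). Of these, 259 were higher under HFD (1.17%) and 274 lower (1.24%). Counts of called genes in the lists below are to be read against these shares. With array medians set equal before the fit, 313 were called, of which 108 were higher, so the share of higher calls went from 48.6% to 34.5%. The 4 HFD arrays and the 4 LFD arrays did not overlap for 2534 genes (11.4%), 1111 with HFD above (5.01%) and 1423 with HFD below (6.42%). The number of calls depended on single mice: it was 164 without HFD replicate 1 (67 higher, 0.302%, and 97 lower, 0.437%), 251, 228, 297 and 331 without LFD replicates 1 to 4, and 438, 374 and 390 without HFD replicates 2 to 4. A smaller set of 145 genes (0.654%) was called in the full fit and whichever of the 8 arrays was left out, with arrays that did not overlap; 61 of them were higher under HFD (0.275%) and 84 lower (0.379%). These are termed stable below. Genes named below were stable unless stated. This does not hold for genes named for the smallest p between times or flagged for single arrays that stood apart, which were taken whether stable or not.

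The fit was repeated with the division by liver transcripts taken into account. With it as a block, 689 genes were called (3.11%; 392 higher, 1.77%, and 297 lower, 1.34%), among them 504 of the 533 and all 145 stable genes. All 533 had the same direction in the 5 arrays with high hepatocyte transcripts and in the 3 others, against 60.7% of all genes; since the same arrays made the calls, that share is a description. In the fit of arrays with high hepatocyte transcripts alone, which sets 3 HFD against 2 LFD arrays at 8 weeks, 211 genes were called, among them 152 of the 533 and 90 of the 145 stable genes. A fit that adjusted for each array's mean of the hepatocyte list and of the epididymis list made 960 calls (56.4% higher), which included 498 of the 533. Between LFD arrays with and without high hepatocyte transcripts, 0 of the 145 stable genes differed by more than 1 log2 unit, compared with 1.63% of all genes, and a gene that varies that much within a diet is less likely to be called.

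**Figure D2:**
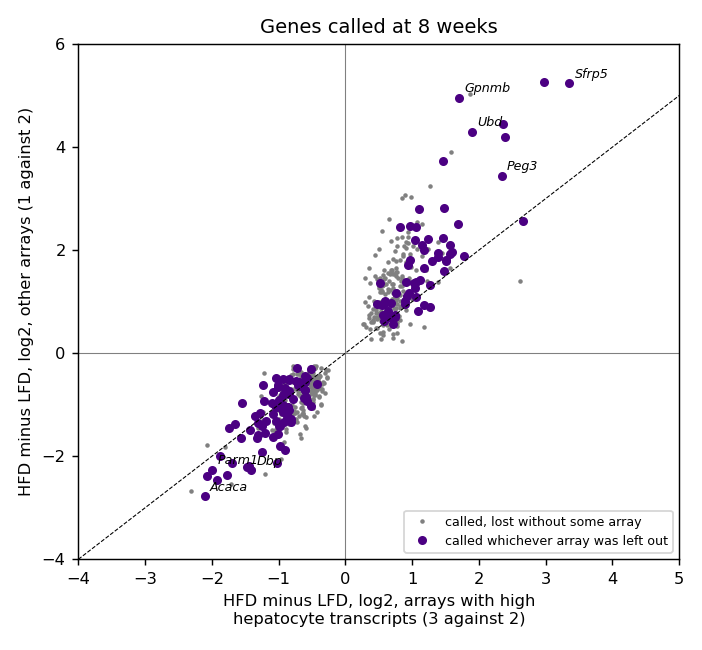
HFD minus LFD difference on the log2 scale in the arrays with high hepatocyte transcripts (x axis, 3 HFD against 2 LFD) and in the others (y axis, 1 HFD against 2 LFD) for the 533 called genes; the dashed line marks equality. All points lie in the lower left or upper right quadrant, and many rises are larger in the comparison that rests on HFD replicate 1.

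Genes of the circadian clock differed between the diets. Of 16 measured clock genes, 1 rose (Arntl) and 7 fell (Per3, Dbp, Tef, Ciart, Bhlhe41, Nr1d2 and Rora), against 1.17% and 1.24% of all genes. The median difference was -0.71 against -0.01 over all genes. Without HFD replicate 1, the array whose loss cost most calls, 1 rise and 5 falls remained called. The list's mean level was 7.48 to 7.67 in HFD arrays and 8.06 to 8.25 in LFD arrays, and the median difference between LFD arrays with and without high hepatocyte transcripts was -0.01. The hour at which tissue was collected is not given in the labels, and its part in these differences was not tested.

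The promoter sequences of 4 of the clock genes that fell are shown because they carry the DNA elements through which clock factors are known to act: the E-box CACGTG, bound by BMAL1 with CLOCK and by the repressor encoded by Bhlhe41, and the D-box TTATGTAA or TTACGTAA, bound by the factors that Dbp and Tef encode. Each is the 250 bases before the RefSeq start site (GRCm38.p6), written 5′ to 3′ on the gene's strand, with matches on either strand in capitals.
Ciart (chr3:95882229-95882478, minus strand): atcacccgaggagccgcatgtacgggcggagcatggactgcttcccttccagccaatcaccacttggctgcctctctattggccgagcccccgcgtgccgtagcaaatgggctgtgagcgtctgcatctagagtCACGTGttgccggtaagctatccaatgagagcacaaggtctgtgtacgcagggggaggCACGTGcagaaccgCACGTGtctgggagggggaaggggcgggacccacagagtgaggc
Tef (chr15:81802423-81802672, plus strand): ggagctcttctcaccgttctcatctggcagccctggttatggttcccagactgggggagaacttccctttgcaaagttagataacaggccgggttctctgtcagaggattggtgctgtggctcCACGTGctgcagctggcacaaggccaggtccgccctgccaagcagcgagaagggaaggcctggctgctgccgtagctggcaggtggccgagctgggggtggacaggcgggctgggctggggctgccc
Bhlhe41 (chr6:145865421-145865670, minus strand): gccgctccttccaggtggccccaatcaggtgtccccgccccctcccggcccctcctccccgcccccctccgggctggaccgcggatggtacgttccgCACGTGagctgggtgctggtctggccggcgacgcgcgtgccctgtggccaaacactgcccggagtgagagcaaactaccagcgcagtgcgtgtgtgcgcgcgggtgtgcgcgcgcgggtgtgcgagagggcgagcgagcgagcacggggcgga
Per3 (chr4:151044666-151044915, minus strand): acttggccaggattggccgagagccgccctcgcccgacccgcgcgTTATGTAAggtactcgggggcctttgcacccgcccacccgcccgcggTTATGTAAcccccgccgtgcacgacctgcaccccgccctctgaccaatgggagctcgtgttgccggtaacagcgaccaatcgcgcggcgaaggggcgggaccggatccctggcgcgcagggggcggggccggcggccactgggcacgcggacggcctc
Ciart held 3 E-boxes in this window, Tef and Bhlhe41 held 1 each, and Per3 held 2 D-boxes. Among 32851 such windows of all genes, 6.02% held an E-box and 0.931% a D-box. Of the 7 clock genes that fell, 3 had an E-box and 1 a D-box in a window, and of the other 8 clock genes with a window 1 had an E-box and 0 a D-box. These letters are a description of the windows, not a measurement of binding.

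Arntl encodes BMAL1, the activating partner of CLOCK. It read 7.29, 7.18, 7.62 and 6.96 in HFD replicates 1 to 4 and 5.98, 6.30, 6.08 and 5.66 in LFD replicates 1 to 4. Every HFD array lay above every LFD array, and the difference was 1.26 ± 0.23 (moderated SE, 4 against 4 arrays), or 2.39-fold (adjusted p = 0.00498). Clock itself differed by 0.33 and Npas2, which can stand in for Clock, by 0.57, and neither was called (adjusted p = 0.186 and 0.212).

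The falls were largest among the output and repressor genes. Dbp, an output activator of the PAR bZIP family, read 8.80, 9.61, 8.92 and 9.33 under HFD and 10.87, 10.53, 10.91 and 11.23 under LFD. The ranges stood apart by almost 1 unit, and the fall was 1.72 ± 0.26 on the log2 scale (3.29-fold, adjusted p = 0.00158). Bhlhe41, which encodes the repressor DEC2, read 7.06, 6.72, 6.14 and 7.17 under HFD and 8.55, 7.92, 8.29 and 9.10 under LFD. It fell by 1.69 ± 0.35 (adjusted p = 0.0125), with more spread between mice than Dbp. Per3, a period gene, read 7.39, 7.65, 7.46 and 7.68 under HFD and 9.04, 9.01, 9.21 and 8.58 under LFD. Its HFD arrays were close together and its difference was -1.42 ± 0.21 (adjusted p = 0.0014). Ciart, which encodes the BMAL1 repressor CHRONO, was 5.46 to 6.11 under HFD and 6.78 to 7.55 under LFD (difference -1.23 ± 0.24, adjusted p = 0.00911). Tef, a relative of Dbp, was 6.37 to 7.15 under HFD and 7.69 to 8.18 under LFD (difference -1.16 ± 0.20, adjusted p = 0.00396).

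The nuclear receptor genes of the second clock loop were less firm. Nr1d2, which encodes REV-ERB beta, fell by 0.69 (adjusted p = 0.0215) and was lost without HFD replicate 1 or 3 or LFD replicate 1, 2 or 4, with adjusted p between 0.051 and 0.103. Rora, an activator of Arntl, fell by 0.51 (adjusted p = 0.0419) and was lost when any array except HFD replicate 4 was left out, with adjusted p from 0.0564 to 0.141. Per1 (-0.72, adjusted p = 0.0653), Bhlhe40 (-1.21, adjusted p = 0.0563), Hlf (-0.80, adjusted p = 0.0611), Nr1d1 (-0.72, adjusted p = 0.152), Cry2 (-0.67, adjusted p = 0.133) and Cry1 (-0.38, adjusted p = 0.31) were below zero and not called. Nfil3, which represses the D-box targets of Dbp, differed by -0.01 with overlapping arrays. The uncalled clock genes named here are not all members of the list of 16 measured genes, of which 8 were not called. The clock genes' direction was the same in both kinds of array: Dbp differed by -1.41 in the arrays with high hepatocyte transcripts and by -2.27 in the others, Per3 by -1.43 and -1.50, and Arntl by 1.11 and 1.42.

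**Figure D3:**
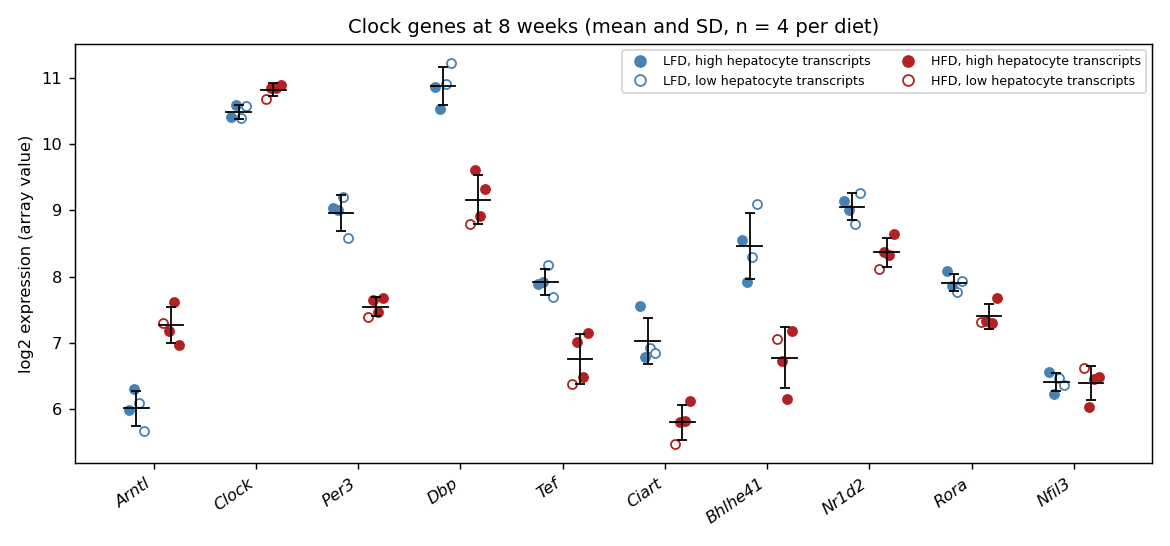
Log2 levels of 10 clock genes in each 8-week array, with the mean and SD of the 4 arrays of each diet; filled points mark arrays with high hepatocyte transcripts. Arntl is higher and Per3, Dbp, Tef, Ciart and Bhlhe41 are lower in all HFD arrays, while Nfil3 overlaps.

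Fatty acid synthesis from carbohydrate was the list with the largest share of falls. Of 17 measured genes, 12 fell, against 1.24% of all genes, and none rose (median -1.04). Between 9 and 12 were called lower when single arrays were left out, with 9 without HFD replicate 1. The list's mean level was 10.02 to 10.38 under HFD and 11.25 to 11.65 under LFD.

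The falls ran from the export of citrate out of mitochondria to the last step of palmitate assembly. Slc25a1, the mitochondrial citrate carrier, read 11.21, 11.10, 11.13 and 11.08 under HFD and 12.13, 12.07, 12.09 and 12.41 under LFD, a fall of 1.04 ± 0.17 (adjusted p = 0.00251). The HFD arrays spanned less than the gap to LFD. Acaca, acetyl-CoA carboxylase and the committed step, read 9.34, 9.90, 9.88 and 9.91 under HFD and 12.03, 11.98, 11.87 and 12.38 under LFD. It fell by 2.31 ± 0.27 (4.95-fold, adjusted p = 0.000213), and HFD replicate 1 was the lowest array. Fasn, fatty acid synthase, read 12.35, 12.48, 12.35 and 12.37 under HFD and 13.68, 13.74, 13.59 and 13.80 under LFD, a fall of 1.32 ± 0.22 (adjusted p = 0.00319) between sets of nearly equal arrays. Aacs, which activates acetoacetate for lipid synthesis, was 8.53 to 9.27 under HFD and 10.38 to 10.94 under LFD (difference -1.72 ± 0.24, adjusted p = 0.000873). Scd1, the desaturase that makes oleate, was 13.37 to 13.62 under HFD and 13.73 to 13.80 under LFD; the arrays did not overlap, but the difference of -0.28 was not called (adjusted p = 0.099), and both diets lay near the highest value in the table, 14.13.

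Genes that bring glucose carbon to that route fell as well. Of 21 genes of glucose uptake, glycolysis and pyruvate entry, 7 fell, against 1.24% of all genes, and none rose (median -0.44). Between 3 and 6 were called lower with 1 array left out, with 3 without HFD replicate 1. Mpc1, a subunit of the mitochondrial pyruvate carrier, read 11.50, 11.83, 11.71 and 11.50 under HFD and 12.64, 12.60, 12.20 and 12.43 under LFD. No HFD array reached the lowest LFD array, and the fall was 0.83 ± 0.14 (adjusted p = 0.00396). Pdha1, the catalytic subunit of pyruvate dehydrogenase, read 9.23, 9.55, 9.71 and 9.56 against 10.35, 10.48, 10.31 and 10.70, a fall of 0.95 ± 0.14 (adjusted p = 0.00134). Pdk1, a kinase that switches that enzyme off, fell by 0.94 ± 0.19 (adjusted p = 0.0092), so genes of the enzyme and of an inhibitor of it were both lower. Slc2a4, the insulin-responsive glucose transporter, was 8.64 to 9.05 under HFD and 9.80 to 10.02 under LFD (difference -1.08, adjusted p = 0.0139); its adjusted p was 0.0667 without HFD replicate 1.

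Pcx, pyruvate carboxylase, which refills oxaloacetate, read 10.55, 11.04, 10.92 and 10.75 under HFD and 11.90, 11.87, 11.85 and 12.07 under LFD, a fall of 1.11 ± 0.21 (adjusted p = 0.00807). It was the stable member among 4 of 19 citric acid cycle genes that fell (median -0.39; 1 without HFD replicate 1). Of 18 glycogen genes, 4 fell, against 1.24% of all genes (median -0.31, with 1 fall left without HFD replicate 1). Gbe1, the glycogen branching enzyme, read 8.55, 9.38, 9.43 and 9.43 under HFD against 10.33, 10.30, 10.14 and 10.70 under LFD (difference -1.17 ± 0.21, adjusted p = 0.00485), and HFD replicate 1 lay well below the other 3. All 18 glycogen genes had a difference below zero, of any size, and most were not called. In the pentose phosphate list, 1 of 8 genes fell (median -0.28), and it was not stable.

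**Figure D4:**
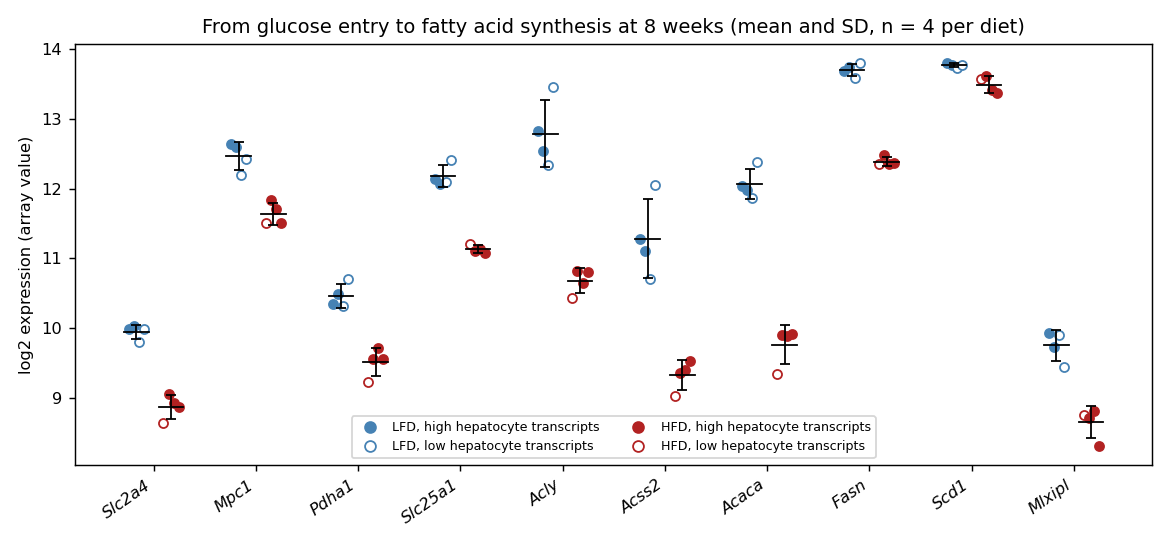
Log2 levels of genes from glucose uptake (Slc2a4) through pyruvate entry (Mpc1, Pdha1) and citrate export (Slc25a1) to fatty acid synthesis, with the regulator Mlxipl; points are arrays, bars the mean and SD of 4, and filled points arrays with high hepatocyte transcripts. The HFD arrays lie below the LFD arrays for all 10 genes, by 1.04 for Slc25a1 and by 0.28 for Scd1, which was not called.

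Regulators of these routes were mixed. Mlxipl, which encodes the glucose-sensing factor ChREBP, read 8.75, 8.71, 8.81 and 8.31 under HFD and 9.93, 9.73, 9.90 and 9.44 under LFD (difference -1.10 ± 0.21, adjusted p = 0.00668). Klf15, a glucocorticoid-responsive factor of adipocyte metabolism, read 7.06, 7.76, 7.61 and 7.75 against 8.66, 8.60, 8.28 and 8.49 (difference -0.96 ± 0.18, adjusted p = 0.00524). Ppargc1a, the coactivator PGC-1 alpha, read 6.15, 6.06, 6.18 and 6.29 against 7.13, 7.20, 7.21 and 6.95 (difference -0.95 ± 0.18, adjusted p = 0.00645). In these 3 genes every HFD array was below every LFD array. Srebf1 (-0.70, adjusted p = 0.119), Pparg (-0.50, adjusted p = 0.346) and Cebpa (-0.55, adjusted p = 0.227) also had arrays that did not overlap, without being called. Klf15 was the single called gene among 18 adipocyte transcription factors.

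Mitochondrial energy genes shifted by small amounts. Of 28 respiratory chain genes 4 fell, against 1.24% of all genes, and all 28 were below zero (median -0.42). In 19 of the 28, every HFD array lay below every LFD array, against 6.42% of all genes. The list's mean was 8.84 to 9.08 under HFD and 9.29 to 9.42 under LFD. No gene of the list was called without HFD replicate 1. Of 22 genes of branched-chain amino acid breakdown, 4 fell (median -0.41), 1 of them without HFD replicate 1. That gene was Mccc1, a subunit of the leucine pathway's methylcrotonyl-CoA carboxylase, at 8.71, 9.06, 9.20 and 9.30 under HFD and 10.10, 9.90, 9.96 and 10.12 under LFD (difference -0.95 ± 0.18, adjusted p = 0.0069). Mitochondrial fatty acid oxidation had 1 fall among 20 genes (median -0.01), not stable. Grouped after their values were seen, the biotin-dependent carboxylases Acaca, Acacb, Pcx and Mccc1 fell, while Pcca, the biotin-carrying subunit of propionyl-CoA carboxylase, differed by -0.31 and was not called (adjusted p = 0.402). Slc5a6, which carries biotin and pantothenate into cells, was also lower, at 6.16, 6.93, 6.58 and 6.92 under HFD and 7.86, 7.82, 8.01 and 8.60 under LFD (difference -1.42 ± 0.26, adjusted p = 0.00623).

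Most genes of cholesterol synthesis lay below zero. Of 20 measured genes, 1 rose and 4 fell, against 1.17% and 1.24% of all genes. The median was -0.60, and 2 falls remained called without HFD replicate 3. Differences were below zero in 18. In 10, every HFD array lay below every LFD array, against 6.42% of all genes. The list's mean was 8.28 to 8.43 under HFD and 8.66 to 9.29 under LFD. Hmgcs1, HMG-CoA synthase, the first committed enzyme, read 11.33, 11.38, 11.31 and 11.50 under HFD and 10.61, 10.70, 10.66 and 10.61 under LFD, a rise of 0.74 ± 0.13 (adjusted p = 0.00396) between tight groups. Pmvk, phosphomevalonate kinase, further down the pathway, read 9.43, 9.04, 9.11 and 8.86 under HFD and 10.05, 10.14, 9.72 and 10.63 under LFD (difference -1.02 ± 0.21, adjusted p = 0.0125). Fdft1, squalene synthase, fell by 0.99 ± 0.19 (adjusted p = 0.00657). Hmgcs1 was 1 of the genes also called at 4 weeks (1.04, adjusted p = 0.00147) and at 12 weeks (0.84, adjusted p = 0.000744).

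Most markers of the adipocyte itself were not called, but a larger share was called than among all genes. Of 15 genes of mature adipocyte identity, 1 rose and 3 fell, against 1.17% and 1.24% of all genes, and 11 were not called. The median was -0.07, and 1 rise and 1 fall remained called without HFD replicate 1. The list's mean was 9.99 to 10.13 under HFD and 10.18 to 10.32 under LFD, without overlap. Pcolce2, a procollagen-processing enhancer, read 10.07, 9.69, 9.70 and 9.76 under HFD and 8.60, 8.49, 8.49 and 8.32 under LFD (difference 1.33 ± 0.22, adjusted p = 0.00319). Tmem79, a membrane protein, read 6.00, 6.16, 5.99 and 5.85 against 7.32, 7.37, 7.09 and 7.35 (difference -1.28 ± 0.16, adjusted p = 0.000326). Nat8l (-1.17, adjusted p = 0.0309) and Slc36a2 (-0.88, adjusted p = 0.0443) also fell in that list and were not stable. In a separate list of lipolysis and the lipid droplet coat, 1 of 21 genes rose and 1 fell (median -0.16). The fall was that of Cidea, a lipid droplet protein abundant in brown adipocytes. Cidea read 6.67, 6.24, 6.13 and 5.81 against 6.89, 7.69, 7.13 and 7.42 (difference -1.07 ± 0.21, adjusted p = 0.00913). Its HFD replicate 1 came close to LFD replicate 1. Adipoq differed by -0.06 (adjusted p = 0.926), Lep, the leptin gene, by 0.50 (adjusted p = 0.292), Lpl, lipoprotein lipase, by -0.12 (adjusted p = 0.671) and Ucp1, the brown fat uncoupler, by -0.04 at a level of 3.73 to 4.17.

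The largest rises among the stable genes were those of Sfrp5 and Slc5a7. Sfrp5, which encodes a secreted Wnt antagonist made by adipocytes, read 11.25, 10.40, 10.23 and 10.09 under HFD and 6.81, 6.97, 5.88 and 6.13 under LFD. The lowest HFD array exceeded the highest LFD array by over 3 units, and the rise was 4.04 ± 0.55 (16.5-fold, adjusted p = 0.000581). It was the only called gene among 27 of the Wnt pathway. Slc5a7, the high-affinity choline transporter, read 9.80, 8.66, 8.35 and 8.06 against 5.31, 5.45, 4.28 and 4.81, a rise of 3.76 ± 0.43 (13.5-fold, adjusted p = 0.000213). Both genes were also higher in the LFD arrays with high hepatocyte transcripts than in the other LFD arrays, by 0.88 for Sfrp5 and 0.84 for Slc5a7.

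Peg3 and Mest are paternally expressed imprinted genes, Mest being a marker of adipocyte enlargement. Peg3 read 10.68, 10.63, 10.39 and 10.22 under HFD and 7.92, 8.22, 8.24 and 6.23 under LFD (difference 2.83 ± 0.47, adjusted p = 0.00293), with LFD replicate 4 far below the rest. Mest read 12.10, 11.68, 11.77 and 11.56 against 10.37, 10.03, 10.21 and 10.81 (difference 1.42 ± 0.25, adjusted p = 0.00396). They were the only called genes of 18 in the imprinted list, whose median was 0.03. Cdkn1a, the cell cycle inhibitor p21, read 10.71, 10.52, 10.55 and 10.00 against 8.55, 9.05, 7.90 and 9.34, a rise of 1.74 ± 0.28 (adjusted p = 0.00245). It was the only rise among 19 genes of p53 targets and growth arrest (median 0.23). The cell cycle inhibitor genes Cdkn2c (-0.82, adjusted p = 0.031) and Cdkn1b (-0.38, adjusted p = 0.0497) fell in the full fit. Cdkn2c was lost without HFD replicate 1 or 3 or LFD replicate 1, 2 or 4 (adjusted p from 0.0629 to 0.139), and Cdkn1b without HFD replicate 1, 2 or 4 or LFD replicate 1, 2 or 3 (adjusted p from 0.109 to 0.164).

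Several other large rises were in single genes, set side by side here after their values were seen. Synpo2, an actin-binding protein, read 9.57, 9.13, 9.06 and 8.93 under HFD and 7.54, 7.42, 7.57 and 7.73 under LFD (difference 1.61 ± 0.20, adjusted p = 0.000326). Hspb7, a small heat shock protein known from heart and muscle, was 8.74 to 9.69 against 7.02 to 8.37 (difference 1.73 ± 0.36, adjusted p = 0.0127). The skeletal muscle list had 0 of 11 genes called, at a mean of 4.93 to 5.09 under HFD and 5.11 to 5.25 under LFD. Cacna1e, a voltage-gated calcium channel subunit, read 6.15, 6.39, 5.71 and 5.65 against 4.31, 4.32, 4.24 and 4.13 (difference 1.72 ± 0.28, adjusted p = 0.00251). Unc79, part of a sodium leak channel complex, rose by 1.55 ± 0.21 (adjusted p = 0.000496). Adcy5, a membrane adenylyl cyclase, read 9.49, 9.26, 9.63 and 9.33 against 7.48, 7.79, 8.24 and 6.95 (difference 1.81 ± 0.38, adjusted p = 0.013). Adcy10, the soluble, bicarbonate-sensitive adenylyl cyclase, went the other way, at 3.77 to 3.96 under HFD and 4.85 to 5.78 under LFD (difference -1.34 ± 0.21, adjusted p = 0.00174).

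Macrophage genes rose, and 1 mouse stood out in them. Of 18 genes of lipid-associated macrophages, 10 rose (median 1.21), against 1.17% of all genes. Of 25 genes shared by macrophages and monocytes, 10 rose (median 0.74). Without HFD replicate 1, 4 and 2 of these list genes were called higher, against 0.302% of all genes. The mean of the lipid-associated list was 9.29, 7.76, 7.64 and 7.98 in HFD replicates 1 to 4 and 6.85 to 6.93 in the LFD arrays, so that HFD replicate 1 was the highest and the other 3 were still above every LFD array. HFD replicate 1 was also the HFD array with low hepatocyte transcripts, and the part of either feature in the other was not tested. In bulk tissue, more cells of a type and more RNA per cell cannot be told apart.

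Mmp12, macrophage elastase, read 11.03, 9.20, 8.96 and 9.71 under HFD and 6.87, 6.93, 6.17 and 7.49 under LFD (difference 2.86 ± 0.50, adjusted p = 0.00396). Gpnmb, a glycoprotein of lipid-laden macrophages, read 11.61, 8.91, 8.23 and 9.26 against 6.94, 7.25, 6.53 and 6.76, a rise of 2.63 ± 0.55 (adjusted p = 0.0125) to which HFD replicate 1 added most. Its difference was 1.70 in the arrays with high hepatocyte transcripts and 4.96 in the others. Itgax, which encodes CD11c, rose by 1.75 ± 0.33 (adjusted p = 0.0065), and Il7r, the interleukin 7 receptor, by 2.02 ± 0.40 (adjusted p = 0.00944). Mpeg1, a pore-forming protein of phagocytes, read 9.85, 9.11, 8.91 and 9.30 against 7.93, 7.95, 7.75 and 7.93 (difference 1.40 ± 0.23, adjusted p = 0.00293), with 4 closely spaced LFD arrays. Fcgr2b, the inhibitory Fc receptor, read 10.00, 9.74, 10.03 and 9.83 against 9.33, 9.27, 9.26 and 9.26 (difference 0.62 ± 0.12, adjusted p = 0.00913), and here HFD replicate 1 did not stand out.

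Other immune cell lists held few called genes or none. None of 17 genes of tissue-resident macrophages was called (median 0.23). Their mean was 8.81 to 8.97 under HFD and 8.61 to 8.75 under LFD. Cd163, a resident scavenger receptor, differed by -0.07 and Mrc1, the mannose receptor, by 0.56 (adjusted p = 0.942 and 0.0834). None of 14 dendritic cell genes, 13 neutrophil genes or 15 mast cell and eosinophil genes was called. T and NK cells had 1 of 20 called, a rise, against 1.17% of all genes. In that list 19 differences were above zero and 1 below (median 0.18). Its mean was 5.24 to 5.48 under HFD and 5.01 to 5.22 under LFD. B cells had 1 of 15 called (median 0.02), the immunoglobulin gene Ighm, which rose by 1.40 (adjusted p = 0.0194). Ighm was not stable. It was also called at 4 weeks (1.72, adjusted p = 0.0299) and at 12 weeks (1.22, adjusted p = 0.0253). Rnase2a, an eosinophil-type ribonuclease that no list held, read 9.31, 8.05, 7.00 and 7.37 under HFD and 5.16, 5.07, 4.39 and 5.34 under LFD (difference 2.94 ± 0.48, adjusted p = 0.00251).

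Genes of innate sensing and recruitment rose in part. Of 28 chemokine genes 7 rose (median 0.38), and of 25 genes of pattern recognition 6 rose (median 0.43), against 1.17% of all genes. Without HFD replicate 1 the numbers in these lists were 1 and 0. Ccl9, a chemokine for myeloid cells, read 11.83, 11.33, 11.35 and 11.36 under HFD and 10.36, 10.24, 10.42 and 10.46 under LFD (difference 1.10 ± 0.21, adjusted p = 0.00807). Tlr8, an endosomal receptor for RNA, read 9.13, 7.90, 8.05 and 8.44 against 7.15, 6.97, 6.99 and 7.23 (difference 1.30, adjusted p = 0.0171), and its adjusted p was 0.0905 without HFD replicate 1 and 0.0564 without LFD replicate 2. Tnip3, an inhibitor of NF-kappaB signalling, rose by 1.52 ± 0.31 (adjusted p = 0.0125). Il1rn, the interleukin 1 receptor antagonist, read 6.95, 5.85, 5.92 and 5.62 against 4.93, 4.58, 4.97 and 4.53 (difference 1.33 ± 0.21, adjusted p = 0.00245). The cytokine genes Tnf (0.58, adjusted p = 0.108), Il6 (-0.14, adjusted p = 0.821) and Il1b (0.25, adjusted p = 0.702) were not called, and their arrays overlapped.

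Some genes of antigen presentation and complement rose. Ciita, the master regulator of MHC class II genes, read 7.97, 7.69, 7.83 and 7.65 under HFD and 6.94, 6.72, 7.00 and 7.01 under LFD (difference 0.87 ± 0.15, adjusted p = 0.00396). Ctss, cathepsin S, which trims the class II invariant chain, read 11.82, 10.57, 10.40 and 10.99 against 9.44, 9.41, 9.43 and 9.77 (difference 1.43 ± 0.28, adjusted p = 0.00834), with HFD replicate 1 the highest. The class II list's mean was 8.51 in HFD replicate 1, 8.01 to 8.15 in the other HFD arrays and 7.43 to 7.62 under LFD. With H2-Ab1, a class II chain, they made 3 rises among 11 class II genes (median 0.57); H2-Ab1 (adjusted p = 0.0497) was lost whichever array was left out, with adjusted p from 0.0512 without HFD replicate 4 to 0.186 without HFD replicate 1. Cfb, complement factor B of the alternative pathway, read 10.88, 10.89, 11.09 and 10.99 against 10.03, 9.85, 9.73 and 9.86 (difference 1.10 ± 0.18, adjusted p = 0.00305). Serping1, the inhibitor of complement C1, read 12.07, 11.92, 11.90 and 11.63 against 11.34, 11.13, 11.26 and 10.96 (difference 0.71 ± 0.13, adjusted p = 0.00537). Both are also made by liver, and the LFD arrays with high hepatocyte transcripts exceeded the other LFD arrays by 0.14 for Cfb and 0.12 for Serping1; the part of liver transcripts in these rises was not tested. Complement as a list had 3 rises among 18 genes (median 0.55; 2 without HFD replicate 1).

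Saa3, the serum amyloid A gene expressed in adipose tissue and macrophages, read 8.62, 8.86, 8.73 and 8.20 under HFD and 6.85, 6.99, 6.16 and 6.07 under LFD (difference 2.08 ± 0.37, adjusted p = 0.00448). The LFD arrays with high hepatocyte transcripts were 0.80 above the other LFD arrays, and the diet difference was 1.68 and 2.50 within the 2 kinds of array. Ubd, a ubiquitin-like modifier induced by inflammatory cytokines, read 8.45, 5.77, 6.48 and 6.15 against 4.16, 4.31, 4.28 and 4.01 (difference 2.52 ± 0.49, adjusted p = 0.00839), with HFD replicate 1 well above the others. It was the only called gene of 13 in the class I and immunoproteasome list.

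Most matrix genes lay above zero, and few vessel genes were called. Of 30 matricellular and matrix-associated genes, 2 rose and none fell (median 0.40), with 25 differences above zero and 5 below. In 13 of them every HFD array lay above every LFD array, against 5.01% of all genes. That list's mean was 8.45 to 8.79 under HFD and 8.03 to 8.27 under LFD. Postn, periostin, read 11.11, 10.41, 10.16 and 10.64 under HFD and 9.15, 9.07, 9.24 and 9.39 under LFD (difference 1.37 ± 0.20, adjusted p = 0.00134). Timp1, an inhibitor of matrix metalloproteinases, read 6.98, 6.26, 6.96 and 5.63 against 4.67, 5.11, 5.02 and 5.20 (difference 1.46 ± 0.26, adjusted p = 0.00517). Angpt1, a ligand of the endothelial receptor TIE2, read 6.43, 5.65, 5.68 and 5.94 against 7.47, 7.55, 8.10 and 7.68, a fall of 1.78 ± 0.33 (adjusted p = 0.00627). It was the only called gene of 22 in vessel growth, and none of 23 endothelial genes was called. Of 34 collagen genes 4 rose, against 1.17% of all genes, and 0 without HFD replicate 1 (median 0.26). Among them, Col6a1 rose by 0.82 and Col6a3 by 0.69 (adjusted p = 0.0164 and 0.0184), and neither was stable. Without HFD replicate 1 their differences were 0.73 and 0.65 (adjusted p = 0.0809 and 0.0806). Both were also called at 4 weeks (1.18 and 0.92) and at 12 weeks (1.20 and 0.89). None of 23 genes of progenitors and fibroblasts was called.

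Several of the largest falls lay outside the metabolic lists. Parm1, an androgen-regulated membrane protein, read 7.20, 7.08, 7.27 and 6.85 under HFD and 9.05, 9.09, 8.51 and 10.40 under LFD (difference -2.16 ± 0.35, adjusted p = 0.00251). Cldn22, a claudin, read 5.24, 5.88, 5.42 and 6.02 against 7.78, 7.91, 8.00 and 7.26 (difference -2.10 ± 0.27, adjusted p = 0.000326). Sorl1, a sorting receptor of endosomes that acts on the insulin receptor and lipoprotein lipase, read 7.42, 7.57, 7.48 and 7.74 against 9.41, 9.18, 8.81 and 10.31 (difference -1.88 ± 0.39, adjusted p = 0.0125). In Parm1 and Sorl1, LFD replicate 4 was the highest array. Slc2a13, a proton-coupled inositol transporter, fell by 1.56 ± 0.20 (adjusted p = 0.000326), and Cyp2c55, a cytochrome P450 that oxidises arachidonic acid, by 1.55 ± 0.29 (adjusted p = 0.00627). Ephx1, microsomal epoxide hydrolase, rose by 0.72 ± 0.14 (adjusted p = 0.00944). Gsta4, which detoxifies the lipid peroxidation product 4-hydroxynonenal, read 7.57, 8.70, 8.50 and 8.65 against 9.67, 9.52, 9.29 and 9.48 (difference -1.14 ± 0.20, adjusted p = 0.00412), HFD replicate 1 being the lowest. Rims4, a synaptic vesicle release protein, fell by 1.13 ± 0.16 (adjusted p = 0.000669).

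**Figure D5:**
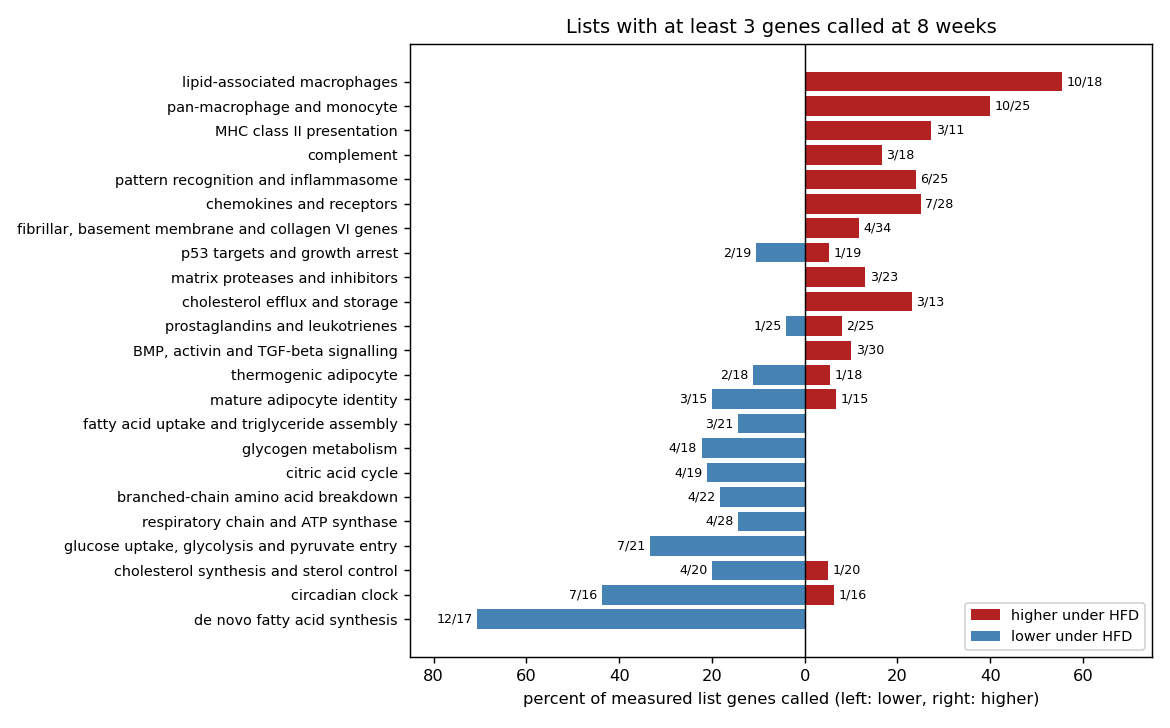
Share of the measured genes of each list that were called higher (right) or lower (left) under HFD at 8 weeks, for the 23 lists with at least 3 calls, ordered by their median difference; labels give the number called over the number measured. Fatty acid synthesis has 12 of 17 genes lower and lipid-associated macrophages 10 of 18 higher, against 1.24% and 1.17% of all genes.

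The diet differences at 8 weeks were set against those at 4 weeks (3 HFD and 4 LFD arrays) and 12 weeks (4 and 4), which have their own control arrays. The mice are labelled as 16, 20 and 34 weeks old at 4, 8 and 12 weeks of diet, so time on diet and age cannot be told apart. The label of 34 weeks does not follow from 12 weeks of a diet begun at 12 weeks of age, and this conflict was left unresolved. No gene's diet difference was called as changed between 4 and 8 weeks or between 8 and 12 weeks (limma, 0 of 22180 and 0 of 22180, 0.0% each; 1329 and 1127 genes at an unadjusted p under 0.05; smallest adjusted p 0.814 and 0.973). With the division by hepatocyte transcripts as a block, the 12 against 8 week comparison instead called 155 genes, 154 of them with a lower diet difference at 12 weeks. Of these, 10 were among the 25 hepatocyte genes, 140 were more than 1 unit higher in LFD arrays with high hepatocyte transcripts than without, and 1 was called at 8 weeks. Among the 533 genes called at 8 weeks, 36 were called in the same direction at 4 weeks, which is 6.75% of the 533 and 76.6% of the 47 called there, and 335 at 12 weeks, which is 62.9% of the 533 and 33.9% of the 989 called there. The list of epididymis genes had a median diet difference of 1.74 at 4 weeks and -0.05 at 8 weeks. Without the arrays that carry epididymis transcripts, 1251 genes were called at 8 weeks. The part of these transcripts in the 4-week count was not tested, so the low overlap is no measure of a weaker diet effect.

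The clock list's median difference was nearer zero at the other times, with no called change between times. It was -0.42 at 4 weeks and -0.42 at 12 weeks. Bhlhe41 differed between the diets by -0.47 at 4 weeks, -1.69 at 8 weeks and -0.62 at 12 weeks, and the changes of -1.23 ± 0.52 and 1.07 ± 0.50 between times were not called (adjusted p = 0.814 and 0.973). Arntl differed by 1.09, 1.26 and 0.93 at the 3 times and Dbp by -0.92, -1.72 and -0.95. The 3 genes with the smallest p for 4 against 8 weeks were Fam110c, Sla2 and Sprr2d, and for 8 against 12 weeks Arhgef19, Fam110c and Zfp263. Fam110c, a cytoskeletal protein, was 5.94 to 6.21 under HFD and 6.50 to 6.78 under LFD at 8 weeks (difference -0.57 ± 0.11, adjusted p = 0.00627), while its difference was 0.17 at 4 weeks and 0.10 at 12 weeks; the change of -0.74 ± 0.16 from 4 to 8 weeks had an adjusted p of 0.814. Rims4 differed by -0.26, -1.13 and -0.38 at the 3 times and Ciita by 0.07, 0.87 and 0.58, and neither change passed the test.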

How the data were processed

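The values are log2 expression deposited by the authors, who per the labels' design text processed the arrays in Transcriptome Analysis Console 4.0.2; the log2 scale was read from the value range, while background correction, probe summarisation and scaling between arrays are steps not given in the sources used here. Array medians at 8 weeks were 5.11 to 5.13 in HFD arrays and 5.06 to 5.10 in LFD arrays, without overlap. Of 34472 transcript clusters, those with 1 gene symbol were kept, the cluster with the highest mean standing for a gene (22180 genes). Means of the 7 groups were estimated from all 25 arrays (limma 3.58.1, R 4.3.3; 18 residual degrees of freedom), and a gene was called at an adjusted p (Benjamini-Hochberg) under 0.05. The precision is limited by 4 arrays per group. The members, the 63 gene lists and the rule for named genes were chosen with earlier results of these data known. Named were stable genes with the largest rises (20), falls (20) or smallest p (10), up to 6 stable list members or up to 3 others, a panel, and the 3 smallest p of each comparison between times; clone names were counted only. On simulated data, 32.8%, 76.1% and 98.5% of genes changed 1.5-, 2- and 4-fold at 8 weeks (67, 67 and 66 of 22180) were recovered. Of the calls on simulated data, 6.12% were false. Noise was drawn independently for each gene and array, so deviations shared by many genes, such as liver transcripts, were not simulated. Replicate numbers were not used as a pairing, since the labels tie no HFD mouse to an LFD mouse. Promoters are RefSeq GRCm38.p6 windows. Alternatives covered scaling, filters, clusters, array weights, blocks, covariates and left-out arrays. Raw intensities were not used here.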

Additional observations from a re-analysis of the deposited data

Results flagged for a closer look

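Single arrays stood apart from the other 3 of their diet in 33 of 352 groups of 4 tested (Dixon's 95% criterion, which chance alone meets in about 1 in 20 groups), and 17 of the 33 were HFD replicate 1. HFD replicate 1 was above its group for Nceh1 (8.22, next 6.90), Lipa (11.72, next 10.90), Cd300lb (7.21, next 6.16), Ccl9 (11.83, next 11.36), Serpinf1 (8.21, next 7.88), Adam8 (9.11, next 7.03), Cd68 (11.71, next 10.29) and Trem2 (9.32, next 7.25). HFD replicate 1 was below its group for Acaca (9.34, next 9.88), Gbe1 (8.55, next 9.38), Pccb (9.21, next 9.76), Ivd (8.64, next 9.17), Acadsb (9.03, next 9.55), Hsd11b1 (7.89, next 8.39), Retn (13.44, next 13.66), Alb (10.46, next 13.34) and Xist (3.78, next 5.87). HFD replicate 2 was above its group for Fasn (12.48, next 12.37) and Nat8l (7.43, next 7.07). HFD replicate 2 was below its group for Mki67 (7.59, next 8.18). HFD replicate 3 was below its group for Pparg (10.63, next 10.84). HFD replicate 4 was below its group for Cd59a (11.67, next 12.00). LFD replicate 1 was above its group for Fcgr2b (9.33, next 9.27). LFD replicate 1 was below its group for Adam8 (5.79, next 6.04). LFD replicate 2 was above its group for Ighm (11.72, next 11.14). LFD replicate 2 was below its group for Cyp2c55 (9.45, next 10.40). LFD replicate 3 was above its group for Irs1 (8.69, next 8.39). LFD replicate 3 was below its group for Mpeg1 (7.75, next 7.93). LFD replicate 4 was above its group for Gpam (11.92, next 11.67), Dlst (10.21, next 10.03) and Ctss (9.77, next 9.44). LFD replicate 4 was below its group for Peg3 (6.23, next 7.92) and Cxcl16 (6.88, next 7.32). These genes are named for the deviation of an array, and many of them, Cd68 and Trem2 included, were not stable between the diets. Retn, Mki67, Pparg, Irs1, Alb and Xist were not called. No explanation was tested for these values.

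Among 9137 transcript clusters without a gene symbol, which the comparisons left out, 31 were called between the diets at 8 weeks, 13 higher and 18 lower under HFD.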

How the results depend on the processing

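The 8-week count of 533 calls fell to 313 (108 higher) with array medians centred, to 211 in the arrays with high hepatocyte transcripts and, in a fit added after seeing the data, to 38 in the other arrays, where 1 HFD array is assumed to vary like the other groups. It rose to 1267 with array weights, 960 with hepatocyte and epididymis means as covariates, 1251 without arrays with epididymis transcripts and 842 in the submitters' own kind of test (variance analysis of diet and time). Leaving out 1 array gave 164 to 438 calls. The other alternatives gave 415 to 689. Replicate number as a block gave 595. Same-numbered arrays deviated together in 1 of 4 pairs (correlations -0.61, 0.31, -0.28 and -0.24). Both arrays of that pair had high hepatocyte transcripts, whereas each other pair joined a high with a low array. The correlations therefore cannot show whether the numbers pair the mice. The comparison of 12 with 8 weeks had 0 calls except with the hepatocyte block (155). Of 144 called genes the naming rule took, 92 kept their call under every alternative tried except the fits within 1 kind of array and those leaving out an array, and none reversed. The causes were not tested.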

Other observations

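Stable genes outside the lists and the naming rule held further groups, chosen after their values were seen. Syk (1.01), Tec (0.86), Malt1 (0.75), Dock8 (1.44) and Cd180 (1.32), which act in immune receptor signalling, were higher under HFD on the log2 scale. Klf14, an imprinted transcription factor linked to metabolic traits of fat tissue, was higher by 0.88, and Acsl5, an acyl-CoA synthetase, by 0.70. Pank3, which starts coenzyme A synthesis, was lower by 0.70 (difference -0.70). Pth1r, the parathyroid hormone receptor, differed by -1.14, Lncbate1, a long noncoding RNA known from brown adipocytes, by -1.22, and Fn3k, which removes sugar adducts from proteins, by -0.91.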
